A study of Caenorhabditis elegans with 2 samples.

Results

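The 10 genes described here encode parts of the machinery that copies DNA in S phase: mcm-2, mcm-3, mcm-4, mcm-5, mcm-6 and mcm-7 of the MCM helicase, the sliding clamp gene pcn-1, the ribonucleotide reductase gene rnr-1, and the G1/S kinase genes cye-1 and cdk-2. They were listed by function, but earlier results of these data were known when the list was made. They are 10 of the 19973 protein-coding genes on the nuclear chromosomes of the nematode Caenorhabditis elegans. A gene was counted as having a peak when a summit, the point that the authors' lists mark within each peak, fell in its window, which reaches from 1000 bp before an annotated start site to 200 bp after it. The question asked of each gene was whether the transcription factor DMD-6 was found at its promoter.

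DMD-6 is a transcription factor with a DM domain, the DNA-binding domain of Drosophila Doublesex. The worms were of strain RJP5356, which carries the allele rp168(dmd-6::GFP::AID::TEV::3xFLAG) on chromosome IV, in which CRISPR was used to add GFP, a degron and epitope tags to dmd-6 at its own locus. They were synchronised by starving first-stage larvae obtained by bleaching, and whole animals were collected as L4 larvae at an age of 48 hours. Chromatin was sonicated, precipitated through the GFP tag and sequenced (ChIP-seq), although in another field of the labels dmd-6 is entered as the antibody. All samples carry the tag and belong to 1 group of 2 biological replicates. There is no second condition, and the control experiment that the labels name was not used here. A design of 2 samples allows no test across samples, so the genes are described beside the same measure over all protein-coding genes. Whole animals give no cell type, so a peak may come from any tissue that makes DMD-6, and the sex of the animals was not recorded.

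The products of the mcm genes form a ring of 6 different subunits that is loaded on origins in G1 and unwinds DNA at the fork. PCNA, encoded by pcn-1, holds the polymerases on the template, ribonucleotide reductase makes the deoxynucleotides, and cyclin E with its kinase starts S phase. In animals the genes of this machinery are classical targets of E2F, which in the worm is EFL-1 with its partner DPL-1 and is held in check by the retinoblastoma protein LIN-35. L4 larvae still have dividing cells, among them those of the germ line.

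The promoter sequences of 5 of the genes are shown, because they differ in whether a DMD-6 summit and an E2F word occur there. Each is 250 bases long and ends 50 bases short of the most upstream start site, 5′ to 3′ on the strand of the gene, as in the RefSeq copy of assembly WBcel235. Capitals mark any of the 4 words TTTCCCGC, TTTCGCGC, TTTGCCGC and TTTGGCGC on either strand, which are spellings of the E2F recognition sequence. The segments of pcn-1, mcm-7 and mcm-2 hold a DMD-6 summit, whereas those of mcm-6 and mcm-3 hold E2F words and no thresholded summit.
pcn-1 (chrIV:4049499-4049748, minus strand): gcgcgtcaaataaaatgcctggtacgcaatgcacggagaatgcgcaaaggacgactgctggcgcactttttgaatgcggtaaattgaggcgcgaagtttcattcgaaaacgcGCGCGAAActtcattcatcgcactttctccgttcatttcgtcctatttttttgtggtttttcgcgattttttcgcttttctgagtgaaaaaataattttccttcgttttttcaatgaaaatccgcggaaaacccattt
mcm-7 (chrV:4346866-4347115, plus strand): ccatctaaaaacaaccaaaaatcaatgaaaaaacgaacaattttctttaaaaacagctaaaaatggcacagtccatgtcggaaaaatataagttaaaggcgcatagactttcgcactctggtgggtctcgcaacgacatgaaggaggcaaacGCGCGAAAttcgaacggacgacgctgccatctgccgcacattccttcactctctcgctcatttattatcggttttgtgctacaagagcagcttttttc
mcm-2 (chrII:12006676-12006925, minus strand): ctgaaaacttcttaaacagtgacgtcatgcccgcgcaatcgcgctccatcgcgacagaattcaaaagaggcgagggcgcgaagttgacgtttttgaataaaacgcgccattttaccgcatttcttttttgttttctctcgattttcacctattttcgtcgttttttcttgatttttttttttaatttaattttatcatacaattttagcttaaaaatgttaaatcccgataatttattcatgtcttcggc
mcm-6 (chrIII:9794067-9794316, plus strand): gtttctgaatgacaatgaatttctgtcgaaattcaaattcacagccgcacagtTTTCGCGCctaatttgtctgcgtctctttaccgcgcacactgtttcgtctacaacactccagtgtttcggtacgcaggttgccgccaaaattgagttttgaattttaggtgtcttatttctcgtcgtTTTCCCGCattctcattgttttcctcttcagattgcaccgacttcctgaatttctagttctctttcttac
mcm-3 (chrV:15059650-15059899, minus strand): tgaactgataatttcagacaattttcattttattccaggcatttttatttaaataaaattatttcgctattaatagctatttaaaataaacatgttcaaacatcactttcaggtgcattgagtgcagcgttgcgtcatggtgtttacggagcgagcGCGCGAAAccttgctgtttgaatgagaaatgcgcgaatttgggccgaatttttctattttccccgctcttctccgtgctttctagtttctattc

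The word in pcn-1 and mcm-7 is the same one, TTTCGCGC read on the opposite strand, and the mcm-3 segment holds it in the same orientation. The mcm-6 segment holds TTTCGCGC and TTTCCCGC, both in the forward orientation. No capitals appear in the mcm-2 segment, which says only that these 4 spellings are not in those letters.

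The deposited data are peak lists. The main list, made from both replicates jointly, held 7338 peaks, replicate 1 alone held 6533 and replicate 2 alone held 4653. A stricter list over both replicates, called conservative, held 6626. Read depth is unknown, and fewer peaks were called in replicate 2. Each peak carries the authors' signal value, whose scale differs from list to list. The signal was therefore used to rank peaks within a list, where rank 1 is the strongest, and values are not compared between lists. The thresholded lists keep peaks with an irreproducible discovery rate (IDR) of 0.01 or lower, which is a −log10 IDR of 2 or more, and 4 ranked lists also keep the entries below that threshold. The IDR in the list of a single replicate cannot compare the 2 replicates, so an IDR is not read here as agreement between them.

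DMD-6 peaks stood at 5 of the 10 genes in the main list, namely pcn-1, mcm-4, cye-1, mcm-2 and mcm-7. Over all protein-coding genes the share with a peak was 19.1% (3823 genes). Replicate 1 had a peak at the same 5 genes, beside 18.2% of all genes. Replicate 2 had a peak at 4 of them, all but mcm-2, beside 13.0% of all genes, and the conservative list had the same 4, beside 17.7%. Those 4 genes therefore had a thresholded peak in each replicate, beside 12.1% of all genes. Of the MCM subunits 3 of 6 had a main-list peak, and of the other genes 2 of 4 did. The members' shares lay above the genome's share in each of the 4 thresholded lists, which all come from the same 2 replicates. A set of 10 genes is small, it was listed with earlier results known, and no test was made of the difference.

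The peaks at these genes were not among the strongest of DMD-6 as a group. The median rank of the 5 peaks was 52.9% down the main list, beside a median of 43.0% for the best peak of all genes with one. The range was wide, from 6.27% at pcn-1 to 74.5% at mcm-7.

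**Figure D1:**
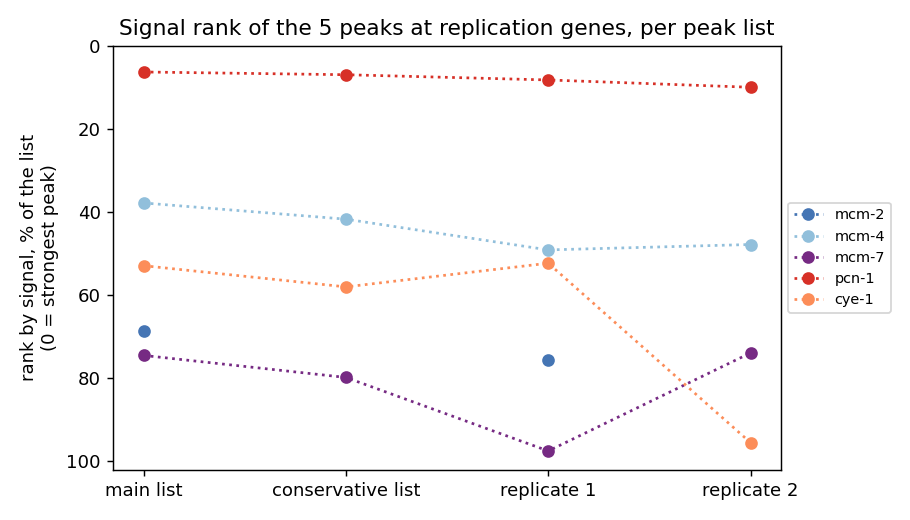
Rank by signal of the peak at each of the 5 genes with one, as a percentage of the length of the list (vertical axis, 0 is the strongest peak), in the 4 thresholded lists (horizontal axis). pcn-1 lies between 6.27 and 9.95% in all 4 lists, while cye-1 lies at 52.3% in replicate 1 and 95.5% in replicate 2; since the lists differ in length, the ranks show order within a list and not a change between lists.

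The strongest binding was at pcn-1, the gene of the PCNA clamp, which lies on the minus strand of chromosome IV from 4047937 to 4049448. Its peak spanned 4049584 to 4049821, a width of 238 bp, in the intergenic stretch below the gene wrt-5, and its summit was 265 bp upstream of the start. The signal was 444.5, rank 460 of 7338, and the −log10 IDR was 5.00, the highest value the lists contain. In replicate 1 the signal was 249.0 at rank 535 of 6533, and in replicate 2 it was 184.7 at rank 463 of 4653. These are 8.19 and 9.95% down their lists, so both replicates placed pcn-1 near the top, and their summits lay 267 and 240 bp upstream of the start.

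Among the helicase genes mcm-4, which encodes an MCM subunit, had the strongest peak. It spanned 2321912 to 2322025 on chromosome I, 114 bp wide, with a summit 123 bp upstream of the start in the gap of 207 bp to the gene Y39G10AR.32 on the same strand. The signal was 176.1 at rank 2774, or 37.8% down the main list, with a −log10 IDR of 4.56. Replicate 1 gave a signal of 97.4 at rank 3209 (49.1%) and replicate 2 gave 81.7 at rank 2226 (47.8%). The replicates put this gene near the middle of their lists, with summits 122 and 142 bp upstream. The ranked list held 4 further entries in the windows of its start sites, of which the highest −log10 IDR was 1.32, below the threshold.

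At mcm-7, another subunit gene, the peak was weak but present in each replicate. It spanned 4346841 to 4347184 on chromosome V, with a summit 153 bp upstream of the start, a signal of 93.9, rank 5470 (74.5%) and a −log10 IDR of 3.12, the lowest of the 5. Replicate 1 gave a signal of 40.9 at rank 6368, which is 97.5% down its list, with a −log10 IDR of 2.14. Replicate 2 gave 58.7 at rank 3438, or 73.9%, with 2.97. In replicate 1 the gene was therefore close to the end of the list and close to the threshold, while the summits of the replicates, 137 and 154 bp upstream, nearly coincided. The summit also fell in the window of hpo-18, on the opposite strand, 588 bp upstream of its start. With the starts 741 bp apart, peak positions alone cannot tell apart a peak of the pair from a peak of either gene.

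At mcm-2, also an MCM subunit gene, only replicate 1 had a peak. The main-list peak spanned 12006675 to 12007018 on chromosome II, with a summit 222 bp upstream of the start, a signal of 103.0, rank 5044 (68.7%) and a −log10 IDR of 3.25. Replicate 1 gave a signal of 65.5 at rank 4947 (75.7%), with a summit 266 bp upstream and a −log10 IDR of 2.16. Replicate 2 had no entry in the window, thresholded or not, and neither had the conservative list. The main-list IDR of mcm-2 therefore does not stand for a peak found in each replicate. In the conservative list the −log10 IDR was 5.00 at pcn-1, 4.41 at mcm-4, 3.28 at cye-1 and 2.20 at mcm-7. The nearest gene upstream, glb-29, was 2446 bp away on the opposite strand, so the peak was shared with no other gene.

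The G1/S regulator cye-1, the gene of cyclin E, carried a peak farther from its start than the others. It spanned 6780057 to 6780400 on chromosome I with a summit 570 bp upstream, a signal of 133.8, rank 3881 (52.9%) and a −log10 IDR of 3.74. Replicate 1 gave a signal of 92.4 at rank 3416 (52.3%) with a −log10 IDR of 3.61, and replicate 2 gave 42.5 at rank 4442 (95.5%) with 2.29. The peak was in mid-list in replicate 1 and near the end of the list in replicate 2. The summit lay 78 bp upstream of pqn-21, a gene on the opposite strand whose start is 648 bp from that of cye-1, and so was closer to pqn-21. A further main-list peak lay inside cye-1, in an intron, from 6781623 to 6781966. Its summit was 989 bp downstream of the nearest start and outside the window, its signal was 194.5 at rank 2423 (33.0%), its −log10 IDR was 4.89, and it overlapped a thresholded peak of each replicate. The intronic site thus ranked above the upstream one in the main list.

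**Figure D2:**
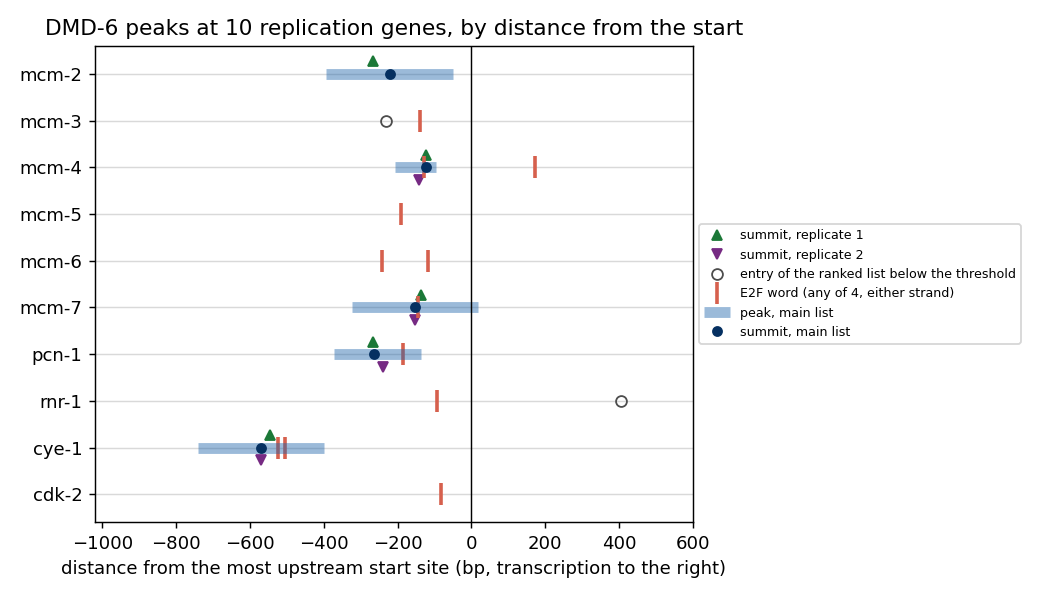
Peaks of the main list (bars), their summits (dots), the summits of each replicate (triangles) and E2F words (red ticks) at the 10 genes, by distance in bp from the most upstream start site (0, transcription to the right). Summits of mcm-2, mcm-4, mcm-7 and pcn-1 lie 123 to 265 bp upstream and that of cye-1 570 bp upstream. The hollow circles at mcm-3 and rnr-1 are entries below the threshold. Such entries are drawn only for genes without a main-list peak in the window, so those of mcm-4 and pcn-1 are not shown. The intronic peak of cye-1 is not drawn either.

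Order by signal was the same in the main list and in replicate 1, with pcn-1 first and then mcm-4, cye-1, mcm-2 and mcm-7. In replicate 2 the order was pcn-1, mcm-4, mcm-7 and cye-1. The replicates shared the first 2 places and differed in the order of cye-1 and mcm-7. With 1 value for each gene in each replicate, the order of neighbours among the weaker peaks has no error estimate. The summits had a median distance of 222 bp upstream of a start, beside 232 bp over the 4521 pairs of a gene and a peak in the whole list. From 100 to 300 bp upstream lay 4 of the 5 summits, beside 33.6% of all pairs.

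The other 5 genes had no thresholded peak in any list. For rnr-1, the gene of the large subunit of ribonucleotide reductase, the ranked list held 1 entry, from 9228220 to 9228563 on chromosome III. It lay in an intron of rnr-1, 142 bp upstream of an internal start site, with a signal of 52.9 and a −log10 IDR of 1.40, and the replicates gave 0.98 and 0.26. This was the entry closest below the threshold of 2, as mcm-7 at 3.12 was the closest above it. The nearest main-list summit was 11378 bp away. For the helicase subunit gene mcm-3 an entry 231 bp upstream of the start, in an exon of the neighbour C25D7.15, had a signal of 39.3 and a −log10 IDR of 0.29. Replicate 2 had an entry there with 0.95, replicate 1 had none, and the nearest main-list summit was 5922 bp upstream.

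No entry of any of the 8 lists fell in the windows of mcm-5, mcm-6 and cdk-2, beside 47.1% of all genes. The first encodes an MCM subunit, and the nearest main-list summit, on its downstream side, was 6389 bp from its start. For mcm-6, another subunit gene, it was 7363 bp upstream. For cdk-2, the gene of the kinase that works with cyclin E, it was 79083 bp upstream. With entries below the threshold counted, 7 of the 10 genes had one in the main ranked list, beside 40.6% of all genes. Absence from a thresholded list at an unknown depth says that no peak was called, not that DMD-6 was absent.

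**Figure D3:**
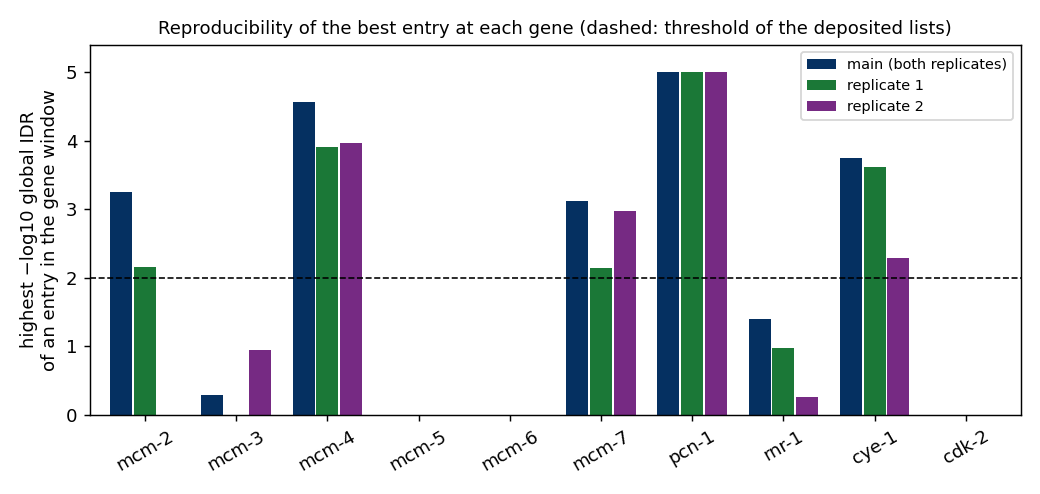
Highest −log10 global IDR of an entry in the window of each gene (vertical axis) in the main ranked list and in that of each replicate (bars), with the threshold of the deposited lists at 2 (dashed line); a missing bar means that the list held no entry. pcn-1 reaches 5.00 in all 3 lists, the highest bar of rnr-1 is 1.40, and mcm-5, mcm-6 and cdk-2 have no bar.

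Members with and without a peak did not split by neighbourhood. Among genes with a peak, pcn-1 and mcm-4 had their nearest upstream gene on the same strand, 557 and 207 bp away, and mcm-2, mcm-7 and cye-1 had it on the opposite strand. Among those without, rnr-1 and mcm-5 had a same-strand neighbour 203 and 276 bp upstream, and mcm-3, mcm-6 and cdk-2 an opposite-strand one 208, 724 and 2823 bp upstream. Peaks were shared with a second protein-coding gene at 2 of the 5 members, beside 18.0% of the 3801 main-list peaks that lay in a gene window.

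E2F words were common in the promoters of both kinds of member. In the window from 250 bp before to 50 bp after the start, 8 of the 10 genes held at least 1 of the 4 words, on either strand, beside 4.69% of all protein-coding genes. The exceptions were mcm-2 and cye-1. The spelling TTTCGCGC alone was in 5 of them (mcm-3, mcm-4, mcm-6, mcm-7 and pcn-1), beside 1.14% of all genes. TTTCCCGC was in mcm-6 and cdk-2 (1.57% of all genes), TTTGCCGC in rnr-1 (1.22%) and TTTGGCGC in mcm-5 (0.941%). In the wider gene window 9 of 10 genes held a word, all but mcm-2, beside 16.5% of all genes. Of 67 further replication and cell-cycle genes, a list described below, 38.8% held a word in the first window and 53.7% in the gene window.

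Peaks occurred at promoters with and without such a word. Of the 8 genes with a word from 250 bp before to 50 bp after the start, 3 had a DMD-6 peak (mcm-4, mcm-7 and pcn-1). Of the 2 genes without any there, both had one (mcm-2 and cye-1). Peaks were counted over the wider gene window, and the cye-1 summit, 570 bp upstream, had words 41 and 60 bp away. Over all genes the shares with a peak were 23.2% with a word and 18.9% without.

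Distances between a word and the summit varied among the 4 genes with both in the gene window. The nearest base of the word was 1 bp from the summit at mcm-4 and 5 bp from it at mcm-7. A second word at mcm-4, TTTCCCGC downstream of the start, was 292 bp from the summit. The distance was 77 bp at pcn-1, and at cye-1 the words TTTGCCGC and TTTCGCGC lay 41 and 60 bp away. Within 50 bp on each side of the summit, 3 of the 5 member peaks (mcm-4, mcm-7 and cye-1) held an E2F word, beside 2.67% of all main-list peaks and 2.95% of those in a gene window. Within 100 bp on each side, 4 of 5 did (pcn-1 in addition), beside 4.61 and 4.97%. The mcm-2 peak, the one found in a single replicate, held none in either window. The further replication and cell-cycle genes had 22 main-list peaks. Of these, 2 (9.09%) held a word within 50 bp and 7 (31.8%) within 100 bp. These shares lay between those of all main-list peaks and those of the member peaks, so a word near the summit was not particular to the 10 genes. The differences were not tested.

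Of the 5 peaks, the 3 with a word within 50 bp had the highest GC content there, while pcn-1, with a word within 100 bp, had the lowest. The 50 bp summit windows of mcm-4 and mcm-7 had a GC content of 57.4%, that of cye-1 55.4%, that of mcm-2 49.5% and that of pcn-1 46.5%. The median over all main-list summits was 41.6%, with quartiles of 36.6 and 48.5%, and only pcn-1 lay within them. The words themselves are rich in G and C, and the part of base composition in their frequency was not tested.

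Words from the sites of other factors were searched in the same way, on both strands. ATGTTGC and ACATTGT, which occur in the sites of the DM-domain proteins MAB-3 and vertebrate DMRT1, were in 0 of the 5 member summit windows of 50 bp on each side, beside 1.59 and 1.87% of all peaks. The E-box CACGTG was in 0 of 5 (6.88% of all peaks) and the GATA word TGATAA in 0 of 5 (31.4%). In the promoters of the 10 genes, the same DM-domain words and the E-box were in 0, beside 3.61% (ATGTTGC), 5.67% (ACATTGT) and 5.82% (CACGTG) of all genes. TGATAA was in 1, mcm-2, beside 30.2%. In the wider gene window TGATAA was in 7 of 10 genes, beside 71.9% of all genes, and ATGTTGC in 2, beside 13.8%. ACATTGT and CACGTG were each in 1 of 10 there, beside 20.4 and 18.3%. A count of 0 in 5 summit windows says little for the rarer words.

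A list of 67 further genes of replication and the cell cycle set the 10 genes in context. Of these, 23 had a main-list peak (34.3%), on 22 peaks since orc-5 and cyb-1 share one, and 16 had a peak in each replicate. The 16 include efl-1, which had no main-list peak. The median rank of the best main-list peaks of the 23 genes was 25.4%, beside 52.9% for those of the 10 genes. With every peak assigned to a single gene, the one whose start was closest (at most 2000 bp away), 15 of the 67 genes (22.4%) had one, beside 20.1% of all genes. The list was made with earlier results of these data known, and its share was not tested against that of the genome.

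By role, the counts are read beside the 19.1% of all genes with a main-list peak and the 12.1% with a peak in each replicate. Of the origin licensing genes 1 of 10 had a main-list peak, the origin recognition gene orc-5 at rank 5700, and 0 had one in each replicate. A count of 1 in 10 is near the share over all genes. Among the partners that activate the helicase 3 of 8 had a peak, 2 of them in each replicate. These were ctf-4, a fork scaffold in yeast, at rank 114, sld-2, an initiation factor, at rank 1867, and psf-1, a GINS subunit, at rank 5092. The sld-2 summit was 905 bp upstream of sld-2 and 61 bp upstream of larp-5, and the psf-1 peak overlapped no thresholded peak of replicate 2. With each peak assigned to the closest start alone, psf-1 kept a peak and ctf-4 and sld-2 did not. The 4 genes of nucleotide supply (rnr-2, tyms-1, dut-1 and dhfr-1) had 0 thresholded peaks, a number of genes too small to set apart from the share over all genes.

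Polymerase and fork genes had a main-list peak at 9 of 22, beside 19.1% of all genes, and a peak in each replicate at 5 of 22, beside 12.1%. The gene rpa-2, for a subunit of the single-strand binding complex RPA, had rank 26 and a signal of 978.3, the strongest of all the replication genes listed. Its summit was 653 bp upstream of the start. The checkpoint mediator gene clsp-1 followed at rank 439, the clamp loader gene rfc-4 at 694 and the fork protection gene tim-1 at 955. Lower came the topoisomerase gene top-2 at 1532, the polymerase alpha gene pola-1 at 3253, the ribonuclease H gene rnh-2 at 5008, the polymerase epsilon gene pole-1 at 5245 and the clamp loader gene rfc-2 at 6050. The tim-1 summit was 265 bp upstream of tim-1 and 231 bp upstream of Y75B8A.23. For top-2 the distance was 282 bp, against 78 bp for npp-3. With each peak assigned to the closest start alone, clsp-1, tim-1 and top-2 had none and the others named here kept one. PCNA is loaded by the RFC complex, and of its 4 listed genes rfc-2 and rfc-4 had a peak while rfc-1 and rfc-3 had none. The rfc-2 peak was weak, 82.4% down the main list, and overlapped no thresholded peak of replicate 2.

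Regulators of the G1/S step and other cell-cycle genes had a main-list peak at 10 of 23 genes, beside 19.1% of all genes. A peak in each replicate was at 9 of 23, beside 12.1%, and the 9 include efl-1, which had no main-list peak. The 23 genes include 8 of DREAM, the repressor complex that contains LIN-35, a grouping made after the values were seen. Of these 8, lin-37, dpl-1 and efl-1 had no main-list peak and 5 had one. The 5 were lin-54 at rank 58, lin-9 at 250, lin-53 at 733, lin-35 itself at 2028 and lin-52 at 3802. Of these peaks only that of lin-9 was shared with no other protein-coding gene. The lin-52 summit was 802 bp upstream of lin-52 and 120 bp upstream of ZK632.9. The distances were 243 bp for lin-53 against 224 bp for nra-2, and 203 bp for lin-35 against 215 bp for vps-51. With each peak assigned to the closest start alone, lin-9 and lin-35 kept a peak and lin-54, lin-53 and lin-52 did not. Outside DREAM, the SCF ubiquitin ligase gene lin-23 was at 1479, the cyclin D gene cyd-1 at 1773 and the anaphase-promoting complex activator gene fzr-1 at 3490. The summits of lin-23 and fzr-1 lay 966 and 967 bp upstream of their starts. The cyclin B gene cyb-1, on the peak shared with orc-5, was at 5700, and the cyclin D kinase gene cdk-4 at 6242. Of the G1/S cyclins, both the cyclin D gene and the cyclin E gene cye-1 thus had a peak; of their kinases cdk-4 had one and cdk-2 had none, but the cdk-4 peak overlapped a thresholded peak of neither replicate.

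**Figure D4:**
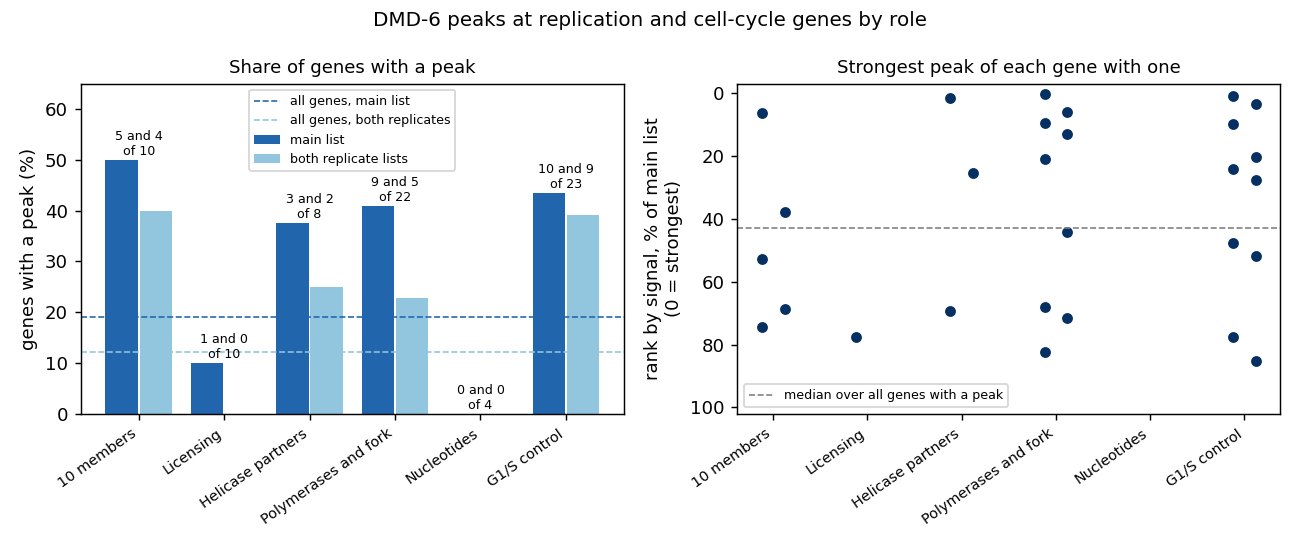
Left, the share of genes with a peak (vertical axis, %) in the main list and in both replicate lists, for the 10 genes and for the 5 roles of the other listed genes, with the counts above the bars and the shares over all genes as dashed lines (19.1 and 12.1%). Right, the rank by signal of the best main-list peak of each gene with one, as a percentage of the list (0 is the strongest); licensing has 1 point and nucleotide supply has none.

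Many of the strong peaks in this wider list were shared with neighbouring genes. Of the 22 peaks, 14 also lay in the window of another protein-coding gene, beside 18.0% of all peaks in a gene window. The lin-54 summit was 25 bp upstream of the ribosomal protein gene rpl-12 and 368 bp upstream of lin-54. The ctf-4 summit was 21 bp upstream of the elongation factor gene eef-1G and 159 bp upstream of ctf-4. The clsp-1 summit was 4 bp upstream of the elongation factor gene eef-2 and 261 bp upstream of clsp-1. The rfc-4 peak was also shared with an elongation factor gene, eef-1A.1, but its summit was closer to rfc-4, at 168 bp against 373 bp. These 4 neighbours were singled out after the values were seen. By contrast pcn-1, mcm-4 and mcm-2 shared their peak with no other protein-coding gene, nor did rpa-2 and lin-9.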

How the data were processed

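The authors deposited 8 peak lists on assembly ce11 (WBcel235), per the labels: per replicate 1 ranked and 1 thresholded list, and 2 of each kind made from both replicates jointly. The deposited signal and score are the authors' values per peak, by formulas not given in the sources used here, as are the aligner and peak caller; the score was not used. The −log10 of the global IDR was taken from the deposited ranked lists. Their 8 columns on compared replicates or read parts were not used. Each thresholded list held entries with a −log10 IDR of 2 or more and no others, but left out 32 to 45 passing entries.

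Summits were assigned to genes of Ensembl release 115 with Python 3.11.15, pandas 2.3.3 and numpy 2.4.6, and sequence was read from the RefSeq copy. Genes were counted without any test, and p-values were not computed. The functions were tested on simulated data. Replicates were left out in turn, and other lists, thresholds, windows and assignments were tried. All 10 genes are named, and every other listed gene with a main-list peak; neighbours are named as sharing a peak or as nearest. Of 69 other genes listed, 67 were matched, 2 of them by locus tag, and cdc-45 and sld-3 were not analysed here. The members and lists were chosen with earlier results of these data known.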

Additional observations from a re-analysis of the deposited data

How the results depend on the processing

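Of the 10 genes, 4 to 5 had a peak when either replicate was left out, and mcm-4, mcm-7 and pcn-1 had one under every alternative tried except the restriction to the 1000 strongest peaks, which left 1 gene, pcn-1. The mcm-2 peak was missing from the conservative list, from replicate 2 and from the peaks that overlap both replicate lists. The cye-1 peak was missing when the window was cut to 500 bp upstream and 100 bp downstream. With the nearest start site it went to pqn-21, and cye-1 was counted through its intronic peak. The window of 500 bp upstream and 100 bp downstream held a peak at 18 of the 67 other genes (26.9%), beside 15.0% of all genes, and left out rpa-2, lin-23, fzr-1, sld-2 and lin-52. Of the 67 other genes, 16 to 24 had a peak without 1 replicate, 15 with peaks overlapping both replicate lists, 8 among the 1000 strongest, 38 with any ranked entry and 15 when each peak went only to the nearest start site within 2000 bp. Over all protein-coding genes the number was 2598 to 3644 without 1 replicate, 2392 with peaks overlapping both replicate lists, 633 among the 1000 strongest and 8114 with any ranked entry. With the nearest start site it was 4013 (20.1%), close to the share of the 67 other genes (22.4%), where the main values are 19.1 and 34.3%. Of the 22 peaks at those genes, 14 lie in the window of another gene too. The settings other than the last keep fewer or more peaks by construction. No paired analysis was possible because there is 1 group. Depth is unknown, so no limit could be set on binding at genes without a peak.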

Other observations

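The gene of the worm E2F factor, efl-1 on chromosome V, had a peak in each replicate list but none in the main list or in its ranked list. In replicate 1 the peak spanned 16965780 to 16965897, with a summit 177 bp upstream of the start, a signal of 132 at rank 2051 (31.4% down the list) and a −log10 IDR of 4.58. In replicate 2 it spanned 16965706 to 16966021, with a summit 189 bp upstream, a signal of 91.8 at rank 1879 (40.4%) and a −log10 IDR of 4.44. The replicates thus placed the site at nearly the same position, and each gave it a rank in the upper part of its list. Such cases were rare. Of the 2413 genes with a peak in each replicate list, 20 (0.829%) had none in the main list. Of the 4238 replicate 1 peaks that overlapped a replicate 2 peak, 42 overlapped no main-list peak, and 24 overlapped no entry of the ranked list of the main list either. The cause was not tested. The gene was singled out after its values were seen. Neither dpl-1, the gene of its partner, nor efl-2, another E2F gene, had a thresholded peak in any list. The licensing gene cdc-6 had a peak in replicate 1 and in no other thresholded list.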
